A study of Mus musculus with 37 samples.

Results

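The 9 genes described here are the luminal and basal keratins Krt5, Krt14, Krt17, Krt7, Krt8, Krt18, Krt19 and Krt23, together with Krt77. They were taken by symbol from the 52636 genes of the deposited count tables, all 9 were found, and all 9 passed the filter on low counts that left 18426 genes for testing. RNA was sequenced from mature luminal cells, the hormone-sensing cells of the mammary duct, sorted by flow cytometry from mice carrying the Esr1 alleles labelled D542G or Y541S, or wild-type Esr1 (WT). Esr1 encodes the estrogen receptor alpha. Mice were raised to 8 weeks of age, ovariectomized and given pellets for 8 days: E2 (estradiol), P4 (progesterone), both hormones (E2+P4) or placebo. Ovariectomy was thus shared by all 12 groups, placebo included. The groups were D542G with E2, P4, E2+P4 or placebo, Y541S with the same pellets, and WT with the same pellets. Each had 3 libraries except WT with P4, which had 4. The series' design calls them biological replicates. The labels do not say whether a library is 1 animal or a pool, nor how many copies of a mutant allele the mice carried. The p-values therefore measure the spread between these libraries, which may in part be technical.

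Keratins are the intermediate filament proteins of epithelial cells, and each filament is built from pairs of a type I and a type II chain. Krt8 (type II) and Krt18 (type I) form the filament of simple epithelia, and with Krt7 (type II) and Krt19 (type I) they mark the luminal layer of the mammary duct. Krt5 (type II) and Krt14 (type I) mark its basal, myoepithelial layer, as they mark the basal layer of the epidermis and the outer root sheath of the hair follicle, where Krt17 (type I) is also made.

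In the GENCODE M21 annotation of GRCm38, the type II genes lie in 1 cluster on chromosome 15: Krt7 at chr15:101411043-101430313, Krt5 at chr15:101707070-101712898, Krt77 at chr15:101858731-101869705 and Krt8 at chr15:101996698-102004482. Krt18 (chr15:102028180-102032027) is a type I gene but sits beside Krt8. The other type I genes lie on chromosome 11: Krt23 at chr11:99477974-99493137, Krt19 at chr11:100140810-100148665, Krt14 at chr11:100203162-100207548 and Krt17 at chr11:100256217-100261029. Krt7 and Krt18 are on the plus strand and the others on the minus strand.

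Promoter sequence is shown for Krt8 and Krt18, the partner chains that are usually made together, and for Krt77, the keratin with the widest range over the groups. Each sequence runs from 250 bases before to 50 bases after the annotated start, in the RefSeq table for GRCm38.p6, and 7 of the 9 genes had an entry. Capitals mark the hexamer AGGTCA or its other strand TGACCT, the repeat unit of the estrogen response element, and the hexamer AGAACA or its other strand TGTTCT, the repeat unit of the element bound by the progesterone, androgen and glucocorticoid receptors.
Krt77, chr15:101869656-101869955, minus strand: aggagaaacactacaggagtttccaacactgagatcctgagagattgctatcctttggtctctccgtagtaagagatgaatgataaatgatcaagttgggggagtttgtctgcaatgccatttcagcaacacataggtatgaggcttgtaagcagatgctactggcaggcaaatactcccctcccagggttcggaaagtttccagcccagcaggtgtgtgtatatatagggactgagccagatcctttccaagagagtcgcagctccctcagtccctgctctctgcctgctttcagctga
Krt8, chr15:102004293-102004592, minus strand: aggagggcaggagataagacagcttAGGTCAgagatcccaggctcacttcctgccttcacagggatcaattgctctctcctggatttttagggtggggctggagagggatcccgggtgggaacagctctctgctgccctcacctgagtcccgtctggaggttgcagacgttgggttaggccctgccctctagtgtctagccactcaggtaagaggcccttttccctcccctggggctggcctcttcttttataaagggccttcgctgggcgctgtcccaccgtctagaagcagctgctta
Krt18, chr15:102027966-102028265, plus strand: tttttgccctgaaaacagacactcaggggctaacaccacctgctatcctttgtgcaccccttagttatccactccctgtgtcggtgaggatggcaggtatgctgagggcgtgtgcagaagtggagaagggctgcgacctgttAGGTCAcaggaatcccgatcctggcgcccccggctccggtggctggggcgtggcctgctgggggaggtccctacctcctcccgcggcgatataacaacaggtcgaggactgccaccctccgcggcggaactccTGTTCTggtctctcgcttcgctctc
The Krt8 window held AGGTCA at -225 from the start, and the Krt18 window held AGGTCA at -108 and TGTTCT at 25. The Krt77 window held neither hexamer on either strand, nor did that of Krt23, while that of Krt5 held the AGGTCA hexamer. The windows of Krt14 and Krt7 lie inside those genes as annotated in GENCODE and are not described. The AGGTCA hexamer was present in 16.3% and AGAACA in 19.0% of 32851 promoter windows of the same length. The full elements GGTCANNNTGACC and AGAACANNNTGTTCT were in none of the 7 windows and in 0.0700% and 0.00913% of all windows. These are matches of letters and carry no measurement of binding.

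Library depth was 25.69 to 52.24 M counts (median 41.26 M). Levels are given as CPM, the counts of a gene divided by the library's TMM-scaled total, and differences as log2 fold changes with standard errors (SE) from edgeR's quasi-likelihood test. A gene was called where its p, adjusted by Benjamini-Hochberg over the 18426 genes, fell under 0.05. Gene counts do not show the Esr1 base change itself. The level of Esr1 was 9.73 to 39.4 CPM in WT E2 libraries, and under placebo it was 147 to 199 CPM in D542G, 55.1 to 105 CPM in Y541S and 579 to 831 CPM in WT libraries. A set of 7 libraries carried keratins of the hair follicle's inner root sheath (Krt25 to Krt28 and Krt71 to Krt74) at a summed 26.5 to 2064 CPM, against at most 1.66 CPM in the other 30 libraries. They were D542G placebo 1 and 3, Y541S P4 3, Y541S placebo 3, WT P4 2 and 5, and WT placebo 2. Calls on the 9 keratins that were lost or gained without all 7 are given with and without them, a choice made after seeing the data. That fit leaves D542G placebo with 1 library, assumed to vary like the others. The hormone groups of a genotype share their placebo libraries, and both mutants are set against the same WT libraries.

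Krt7, Krt8, Krt18 and Krt19 stood above the other keratins described here in every library, and the ranges of the others overlapped. Krt19 and Krt18 were among the most abundant transcripts of the whole table: Krt19 ranked between 1 and 10 and Krt18 between 2 and 11 among all genes in every library. Krt7, Krt8, Krt18 and Krt19 together took 1.06% to 3.09% of all counts. Per kilobase of the principal annotated transcript, WT placebo libraries averaged 4572 ± 763 CPM per kb for Krt19, 3886 ± 495 for Krt18, 553 ± 111 for Krt7 and 534 ± 95.4 for Krt8 (SD, n = 3). The basal keratins stood far lower on this scale, at 43.7 ± 73.1 for Krt5, 28.5 ± 44.4 for Krt14 and 69.8 ± 117 for Krt17, with SDs above the means. WT placebo library 2, which carried inner root sheath keratins, had 281, 135 and 318 CPM of Krt5, Krt14 and Krt17. WT placebo libraries 1 and 3 had at most 5.25 CPM of any of these genes. Krt23 was at 9.83 ± 13.0 and Krt77 at 0.169 ± 0.0879 CPM per kb. Among single libraries the highest level was 2.80 to 4.80 times the lowest for the 4 abundant luminal keratins, and 53.9 to 241 times for Krt5, Krt14, Krt17 and Krt23. For Krt77 the highest library, at 171 CPM, stood against a lowest of 0.0225 CPM.

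**Figure D1:**
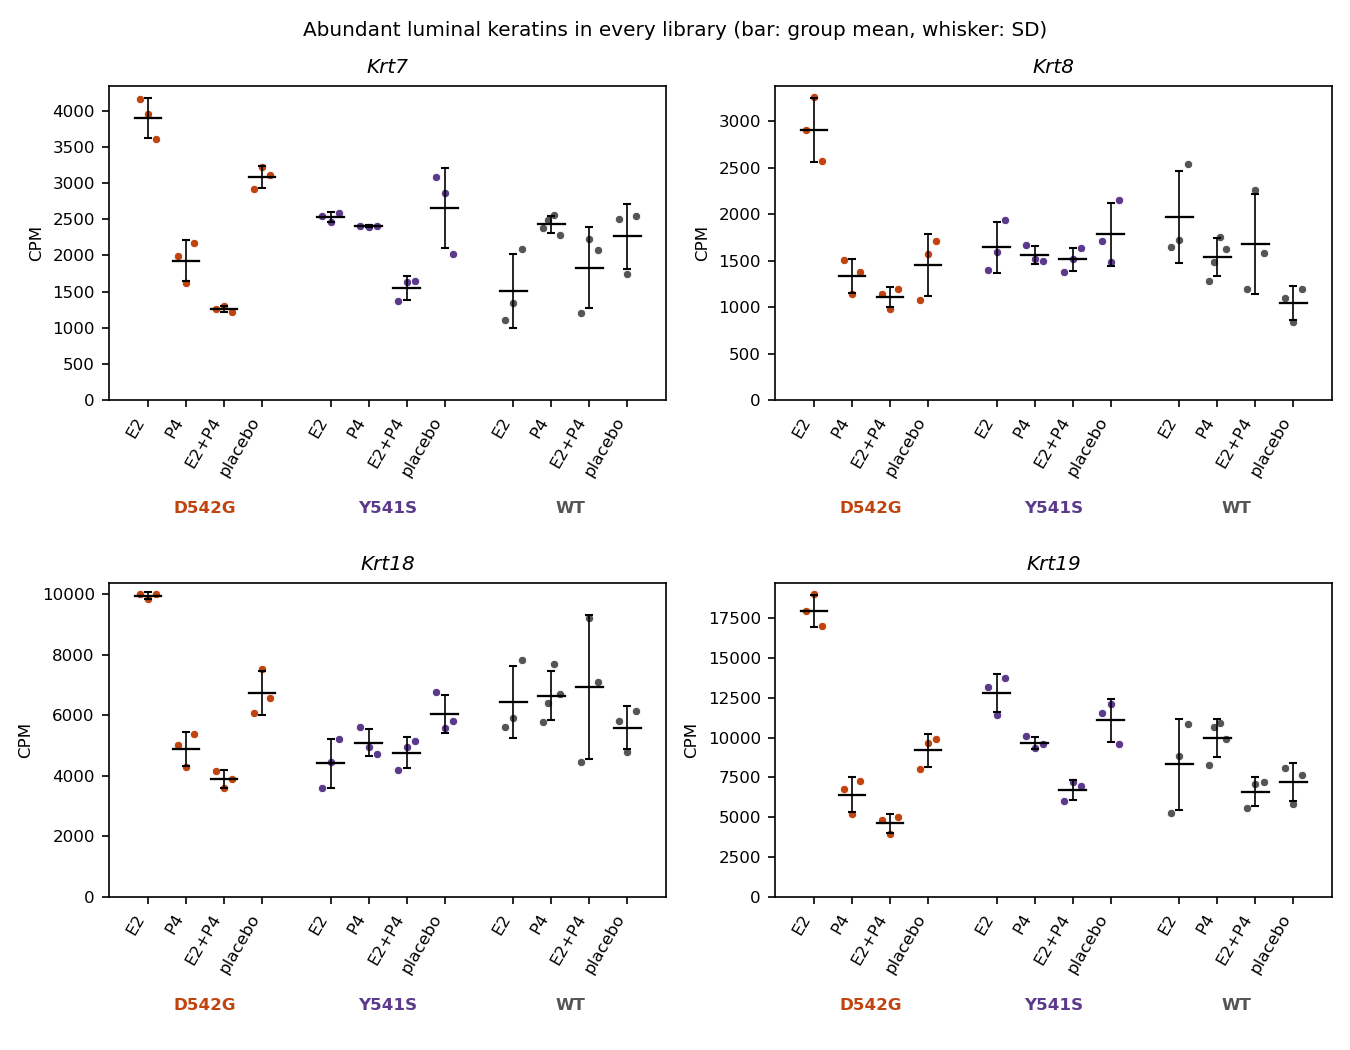
Level of Krt7, Krt8, Krt18 and Krt19 in every library (y axis, CPM, from 0) by genotype and pellet (x axis), with points for libraries, bars for group means and whiskers for SD (n = 3, 4 for WT P4). For each of the 4 genes the 3 D542G E2 libraries lie above every other library, with group means of 3901 CPM for Krt7, 2910 CPM for Krt8, 9957 CPM for Krt18 and 17975 CPM for Krt19.

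D542G cells with E2 held the highest group mean of Krt7, Krt8, Krt18 and Krt19 in the study. For each of the 4 genes its 3 libraries did not overlap with the group that ranked next. The share of all genes that separate in this way is not given here. Against D542G placebo, 4 of the 9 keratins were called, all higher, where 15.7% of all tested genes were called. The median log2 fold change was 0.34 over the 9 keratins and 0.009 over all genes. Krt19 had 17934, 18999 and 16990 CPM in D542G E2 libraries, against 7998, 9675 and 9903 CPM in D542G placebo libraries, a rise of 0.97 (SE 0.19, adjusted p = 5.50e-04). Krt8 had 2903, 3259 and 2568 CPM with E2 and 1077, 1572 and 1714 CPM with placebo, a rise of 1.0 (SE 0.21, adjusted p = 0.00118). Neither gene's groups overlapped, and the fitted folds were 1.96 for Krt19 and 2.0 for Krt8. The fourth called gene was Krt77, described below. Krt18, the partner of Krt8, averaged 9957 ± 107 CPM with E2 and 6725 ± 733 CPM with placebo (SD, n = 3 each). Its rise of 0.57 (SE 0.18, adjusted p = 0.0336) was smaller than that of Krt8. The call was lost without any 1 of 5 of the 6 libraries and without the low-count filter, where the log2 fold change was 0.50 to 0.57 and the adjusted p 0.0507 to 0.140. Krt7, at 3601 to 4155 CPM with E2 and 2914 to 3220 CPM with placebo, was not called (log2 fold change 0.34). Without the libraries with inner root sheath keratins the log2 fold changes were 0.89 for Krt19, 0.89 for Krt8 and 0.40 for Krt18, with adjusted p of 0.0769, 0.0943 and 0.505. In bulk RNA of sorted cells, more cells of a type and more RNA per cell cannot be told apart, here or below.

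In WT cells E2 gave a different set of calls. Of the 9 keratins 5 were called against WT placebo, 3 higher and 2 lower, where 31.5% of all genes were called, and the median was 0.21 over the keratins and 0.031 over all genes. Krt8 had 1647, 1718 and 2542 CPM in WT E2 libraries, against 1099, 839 and 1201 CPM in WT placebo libraries, with no overlap and a rise of 0.91 (SE 0.21, adjusted p = 0.00124). This call held in all 12 alternatives run. Krt18 (log2 fold change 0.21) and Krt19 (0.21) were not called, and the groups overlapped for both: Krt18 was at 5596 to 7819 CPM with E2 and 4786 to 6152 CPM with placebo, and Krt19 at 5239 to 10870 CPM with E2 and 5839 to 8105 CPM with placebo. Krt7 was lower with E2, at 1110, 1337 and 2082 CPM, against 2503, 1739 and 2544 CPM with placebo. The groups overlapped, the log2 fold change was -0.58 (SE 0.20, adjusted p = 0.0242), and the call was lost without any 1 of 4 libraries (adjusted p 0.0979 to 0.154). The E2 responses of D542G and WT differed for Krt7 by 0.92 on the log2 scale (SE 0.28, adjusted p = 0.0335), a comparison in which 1 of the 9 keratins and 9.23% of all genes were called. That difference lost its call in 10 of 18 alternatives, among them the one without the libraries with inner root sheath keratins (1.02, adjusted p = 0.194). Krt19's difference of 0.76 was not called (adjusted p = 0.0672).

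In Y541S cells none of the 9 keratins was called with E2 against placebo by edgeR or DESeq2, with 2 at an unadjusted p under 0.05, where 4.65% of all genes were called. Krt8 had 1398, 1597 and 1943 CPM in Y541S E2 libraries and 1717, 1485 and 2153 CPM in Y541S placebo libraries, groups that overlapped. The E2 response of Krt8 was lower in Y541S than in WT by 1.03 on the log2 scale (log2 difference -1.03, SE 0.29, adjusted p = 0.0271), where 2 of the 9 keratins and 8.02% of all genes were called. This call was lost in 9 of 19 alternatives, among them the one without the libraries with inner root sheath keratins (-1.0, adjusted p = 0.0625). Krt19 stood at 11433 to 13761 CPM with E2 and 9568 to 12114 CPM with placebo, and Krt18 at 3582 to 5205 CPM with E2 and 5585 to 6762 CPM with placebo. Of these 3 genes, Krt18 had groups that did not overlap, and its log2 fold change of -0.46 missed the threshold.

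With both hormones the abundant luminal keratins of D542G cells moved the other way. Against D542G placebo, 4 of the 9 keratins were called, 1 higher and 3 lower, where 25.4% of all genes were called. The median was -0.79 over the keratins and 0.062 over all genes. Krt7 had 1260, 1304 and 1224 CPM in D542G E2+P4 libraries, against 2914, 3220 and 3110 CPM in D542G placebo libraries, a fall of 1.29 on the log2 scale (log2 fold change -1.29, SE 0.20, adjusted p = 2.16e-05). Krt19 had 4828, 3957 and 5026 CPM with E2+P4 and 7998, 9675 and 9903 CPM with placebo (-1.0, SE 0.19, adjusted p = 2.20e-04). Krt18 had 4168, 3589 and 3907 CPM with E2+P4 and 6081, 7522 and 6572 CPM with placebo (-0.79, SE 0.18, adjusted p = 0.00200). No E2+P4 library reached the lowest placebo library for any of the 3 genes, and the 3 calls held in all 11 alternatives run. Krt8, at 986 to 1198 CPM with E2+P4 and 1077 to 1714 CPM with placebo, was not called (-0.39). D542G E2 and D542G E2+P4, which share the placebo group and were not tested against each other, averaged 17975 ± 1005 and 4603 ± 569 CPM of Krt19.

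In Y541S cells 2 of the 9 keratins, Krt7 and Krt19, were lower with E2+P4 than with placebo, where 18.5% of all genes were called. Krt7 had 1365, 1632 and 1651 CPM in Y541S E2+P4 libraries and 3083, 2857 and 2023 CPM in Y541S placebo libraries (-0.78, SE 0.20, adjusted p = 0.00621). Krt19 had 6022, 7186 and 6938 CPM with E2+P4 and 11569, 12114 and 9568 CPM with placebo (-0.72, SE 0.19, adjusted p = 0.00685). The groups did not overlap for either gene. Without the libraries with inner root sheath keratins the values were -0.72 and -0.65, with adjusted p of 0.0530 and 0.0529. In WT cells the count with E2+P4 was 1 of 9, Krt8, which was higher, where 23.4% of all genes were called. Krt8 had 1200, 2266 and 1584 CPM in WT E2+P4 libraries and 1099, 839 and 1201 CPM in WT placebo libraries (0.69, SE 0.21, adjusted p = 0.0159). The lowest E2+P4 library lay just under the highest placebo library, and the call was lost without E2+P4 library 2 (0.41, adjusted p = 0.191) or placebo library 2 (0.55, adjusted p = 0.0925), and without the libraries with inner root sheath keratins (0.55, adjusted p = 0.104). Compared with WT P4, WT E2+P4 had 1 of 9 keratins called, where 23.2% of all genes were called. That was Krt19, at 5547, 7100 and 7191 CPM with E2+P4 and 8284, 10682, 10914 and 9934 CPM with P4 (-0.59, SE 0.18, adjusted p = 0.0147). It was lost without E2+P4 library 1 (-0.48, adjusted p = 0.0965).

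The response to both hormones differed between D542G and WT for 3 of the 9 keratins, where 4.30% of all genes were called. The log2 differences were -1.10 for Krt18 (SE 0.26, adjusted p = 0.0131), -1.08 for Krt8 (SE 0.29, adjusted p = 0.0308) and -0.98 for Krt7 (SE 0.28, adjusted p = 0.0393). All 3 were lower in the D542G response. The Krt18 difference lost its call in 3 of 18 alternatives, that of Krt8 in 10 and that of Krt7 in 12, and none changed sign. Without the libraries with inner root sheath keratins the differences were -1.16, -1.05 and -0.89 for Krt18, Krt8 and Krt7, with adjusted p of 0.179, 0.269 and 0.427. Between Y541S and WT the response to both hormones differed for 1 of 9 keratins, Krt8 (-0.92, SE 0.29, adjusted p = 0.0461), where 8.68% of all genes were called, and 14 of 19 alternatives lost it, among them the one without those libraries (-0.90, adjusted p = 0.111).

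With all libraries, P4 alone gave keratin calls in D542G cells only. In WT cells none of the 9 was called by edgeR or DESeq2, with 2 at an unadjusted p under 0.05, where 1.43% of all genes were called. In Y541S cells none of the 9 was called by either tool and none had an unadjusted p under 0.05, where 11.3% of all genes were called. In D542G cells 2 of the 9 were called, where 18.4% of all genes were called: Krt23, described below, and Krt7. There 5 of the 9 had an unadjusted p under 0.05. Krt7 had 1993, 1616 and 2167 CPM in D542G P4 libraries and 2914, 3220 and 3110 CPM in D542G placebo libraries (-0.68, SE 0.20, adjusted p = 0.0163). The groups did not overlap, but the call was lost without P4 library 2 (-0.57, adjusted p = 0.108), without placebo library 2 (-0.65, adjusted p = 0.0581) and without the libraries with inner root sheath keratins (-0.74, adjusted p = 0.155). Krt19 averaged 6419 ± 1077 CPM with P4 and 9192 ± 1040 CPM with placebo (SD, n = 3 each) and missed the threshold (-0.52, adjusted p = 0.0509). Its P4 response was lower in D542G than in WT (log2 difference -0.98, SE 0.26, adjusted p = 0.0299), as 1 of 9 keratins called where 3.35% of all genes were called. That call was lost in 9 of 20 alternatives, among them the one without the libraries with inner root sheath keratins (-1.04, adjusted p = 0.318). The P4 responses of Y541S and WT differed for none of the 9 keratins by edgeR or DESeq2, with 2 at an unadjusted p under 0.05, where 7.33% of all genes were called.

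**Figure D2:**
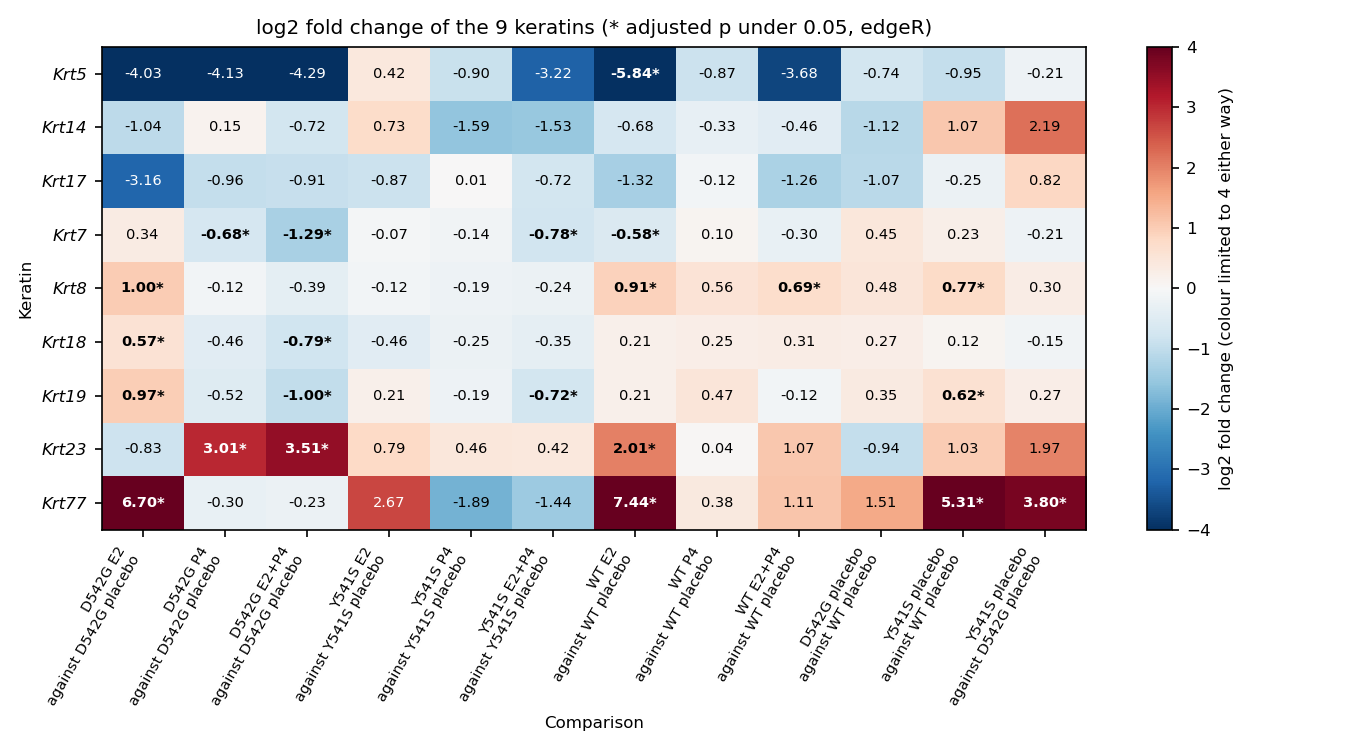
Fitted log2 fold change of the 9 keratins (rows) in 12 comparisons (columns), with red for higher and blue for lower in the first-named group, colour limited to 4 either way, and an asterisk and bold type where the adjusted p was under 0.05. Krt7 is below 0 in the 3 columns that set E2+P4 against placebo, and Krt77 reads 6.70 in D542G E2 and 7.44 in WT E2.

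Without hormone, Y541S cells held more Krt8 and Krt19 than WT cells. Of the 9 keratins 3 were called, all higher in Y541S, where 13.4% of all genes were called, and the median was 0.62 over the keratins and 0.018 over all genes. Krt19 had 11569, 12114 and 9568 CPM in Y541S placebo libraries and 8105, 5839 and 7673 CPM in WT placebo libraries (0.62, SE 0.19, adjusted p = 0.0243). Krt8 had 1717, 1485 and 2153 CPM in Y541S and 1099, 839 and 1201 CPM in WT (0.77, SE 0.21, adjusted p = 0.0122). The groups did not overlap for either gene, and each call was lost in 6 of 13 alternatives, including without WT placebo library 2 (Krt19 0.49, adjusted p = 0.117, and Krt8 0.63, adjusted p = 0.0689). Without the libraries with inner root sheath keratins the values were 0.42 for Krt19 (adjusted p = 0.293) and 0.75 for Krt8 (adjusted p = 0.0563). The third gene was Krt77. D542G and WT placebo libraries differed for none of the 9 by edgeR or DESeq2, with 2 at an unadjusted p under 0.05, where 2.02% of all genes were called. Krt8 stood at 1077 to 1714 CPM in D542G and 839 to 1201 CPM in WT. Y541S and D542G placebo differed for Krt77 alone, where 11.9% of all genes were called.

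The RNA ratio of the partner chains Krt18 and Krt8 differed between group means. Per kilobase, the ratio of the Krt18 level to the Krt8 level was 4.71 ± 0.603 in D542G E2 and 6.48 ± 1.24 in D542G placebo libraries, 3.64 ± 0.151 in Y541S E2 and 4.72 ± 0.917 in Y541S placebo libraries, and 4.50 ± 0.270 in WT E2 and 7.32 ± 0.409 in WT placebo libraries (SD, n = 3 each). In WT the ratio ran from 4.19 to 4.68 with E2 and from 6.98 to 7.77 with placebo, so those groups did not overlap. The groups overlapped in D542G, at 4.11 to 5.32 with E2 and 5.22 to 7.70 with placebo. They also overlapped in Y541S, at 3.49 to 3.79 with E2 and 3.67 to 5.37 with placebo. No test was run on the ratio. Krt8 and Krt18 each have a related copy elsewhere in the genome. The pseudogene Krt8-ps (chr7:23357125-23358069, GRCm38) matched the Krt8 transcript at 98.6% of 941 aligned bases and lies inside the span of Nlrp4e (chr7:23301192-23362277). The deposited tables list 0 counts for Krt8-ps, while Nlrp4e stood at 107 to 405 CPM and held 11.8% to 12.8% of the Krt8 level in every library. The pseudogene Gm17847 (chr1:108997634-108998760) matched Krt18 at 87.7% of 1050 aligned bases and held 0.418% to 0.528% of the Krt18 level. The Krt8 level is uncertain by that share. The library kit does not mark strand, so reads of Krt7 and of the antisense gene Gm671, which overlaps it, cannot be told apart, and Gm36026 and Gm44323 likewise overlap Krt8 and Krt5.

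Markers of the sorted cells and of their neighbours moved beside these changes. The 13 hormone-sensing luminal markers, among them Esr1, Pgr and Foxa1, were all detected. Their summed level was 5250 to 6605 CPM in D542G E2+P4 against 11495 to 12654 CPM in D542G placebo libraries, 5294 to 5938 CPM in Y541S E2+P4 against 5473 to 9623 CPM in Y541S placebo libraries, and 5518 to 7245 CPM in WT E2 against 9649 to 13490 CPM in WT placebo libraries. In D542G P4 libraries it was 6026 to 7115 CPM. There 1 of the 13 rose and 5 fell, with a median of -0.70 against 0.056 over all genes. In D542G E2 libraries the sum was 11033 to 12322 CPM, a range that overlapped with placebo. Of the 13 markers 2 rose and 4 fell there, with a median of -0.45 against 0.009 over all genes, and the changed genes included the growth factor gene Wnt4 (-3.68, adjusted p = 8.49e-05), Cd24a (0.66, adjusted p = 0.0231) and the prolactin receptor gene Prlr (-1.04, adjusted p = 0.0322). The 13 markers of luminal progenitor and alveolar cells, which include Elf5 and milk protein genes, summed to 15236 to 48732 CPM in WT E2 and 4017 to 4785 CPM in WT placebo libraries. In D542G they summed to 1926 to 3832 CPM with E2, 4911 to 15435 CPM with P4, 5257 to 10583 CPM with E2+P4 and 1818 to 3558 CPM with placebo, and with P4 8 of the 13 rose and none fell. Without the 7 libraries, 1 of the 13 rose with P4 in D542G, and 2 of the 13 hormone-sensing markers fell with P4 and 1 with E2. No marker of either list was at 0 in all libraries. Fibroblast markers, 7 genes with Col1a1 among them, summed to 442 to 4097 CPM in Y541S placebo and 37.5 to 279 CPM in WT placebo libraries. Basal markers other than keratins summed to 239 to 511 CPM in D542G E2+P4 and 43.5 to 101 CPM in D542G placebo libraries, and 5 of the 12 tested rose there, with Oxtr, the oxytocin receptor, at 5.46 (adjusted p = 2.48e-06). Leukocyte markers summed to 24.4 to 138 CPM in WT E2 and 2.25 to 4.39 CPM in WT placebo libraries, and 4 of 9 rose with E2. Endothelial markers summed to 55.6 to 131 CPM in D542G P4, 45.2 to 76.5 CPM in D542G E2+P4 and 10.9 to 24.8 CPM in D542G placebo libraries, and of 7 tested 3 rose with P4 and 2 with E2+P4. Of all genes, 15.7% were called in D542G E2, 18.4% in D542G P4, 25.4% in D542G E2+P4 and 31.5% in WT E2. Without the 7 libraries, fewer basal and endothelial markers were called in these D542G comparisons, and fewer leukocyte markers in WT E2. The share of all genes called also fell there. The part of these marker shifts in the keratin results was not tested.

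Krt77, a type II keratin described in the ducts of human sweat glands, was the keratin with the largest differences. It was high with E2 alone in all 3 genotypes. In D542G E2 libraries Krt77 had 136, 155 and 154 CPM, against 0.204, 2.16 and 1.92 CPM in D542G placebo libraries, a rise of 6.70 on the log2 scale (SE 1.23, adjusted p = 3.17e-04). In WT E2 libraries it had 8.38, 123 and 130 CPM, against 0.470, 0.766 and 0.253 CPM in WT placebo libraries, a rise of 7.44 (SE 1.31, adjusted p = 6.92e-05). Neither pair of groups overlapped, and WT E2 library 1 stood well below the other two. The D542G call held in all 11 alternatives and the WT call in all 12, with WT log2 fold changes of 7.02 to 7.98. In Y541S E2 libraries Krt77 had 82.9, 126 and 171 CPM, against 11.4, 12 and 36.3 CPM in Y541S placebo libraries. Those groups did not overlap either, but the log2 fold change of 2.67 (SE 1.01) missed the threshold (adjusted p = 0.141). The E2 response of Krt77 was lower in Y541S than in WT by a log2 difference of -4.77 (SE 1.49, adjusted p = 0.0454), a call lost in 13 of 19 alternatives (adjusted p up to 0.157).

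The Y541S placebo level of Krt77 was itself high. Y541S placebo libraries had 11.4 to 36.3 CPM, against 0.253 to 0.766 CPM in WT placebo libraries (5.31, SE 1.21, adjusted p = 0.00311), a call that held in all 13 alternatives. Against D542G placebo, at 0.204 to 2.16 CPM, the difference was 3.80 (SE 1.09, adjusted p = 0.0228) and was lost in 8 of 13 alternatives, including without Y541S placebo library 5 (3.03, adjusted p = 0.133) and without the libraries with inner root sheath keratins (3.47, adjusted p = 0.234). By group mean the order of Krt77 was D542G E2 (149 CPM), Y541S E2 (127), WT E2 (87.2), Y541S placebo (19.9), Y541S E2+P4 (7.34), Y541S P4 (5.41), D542G placebo (1.43), D542G E2+P4 (1.23), D542G P4 (1.16), WT E2+P4 (1.07), WT P4 (0.660) and WT placebo (0.496). Of the 11 neighbouring pairs in this order, 10 overlapped and Y541S placebo was separate from the group ranked after it.

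**Figure D3:**
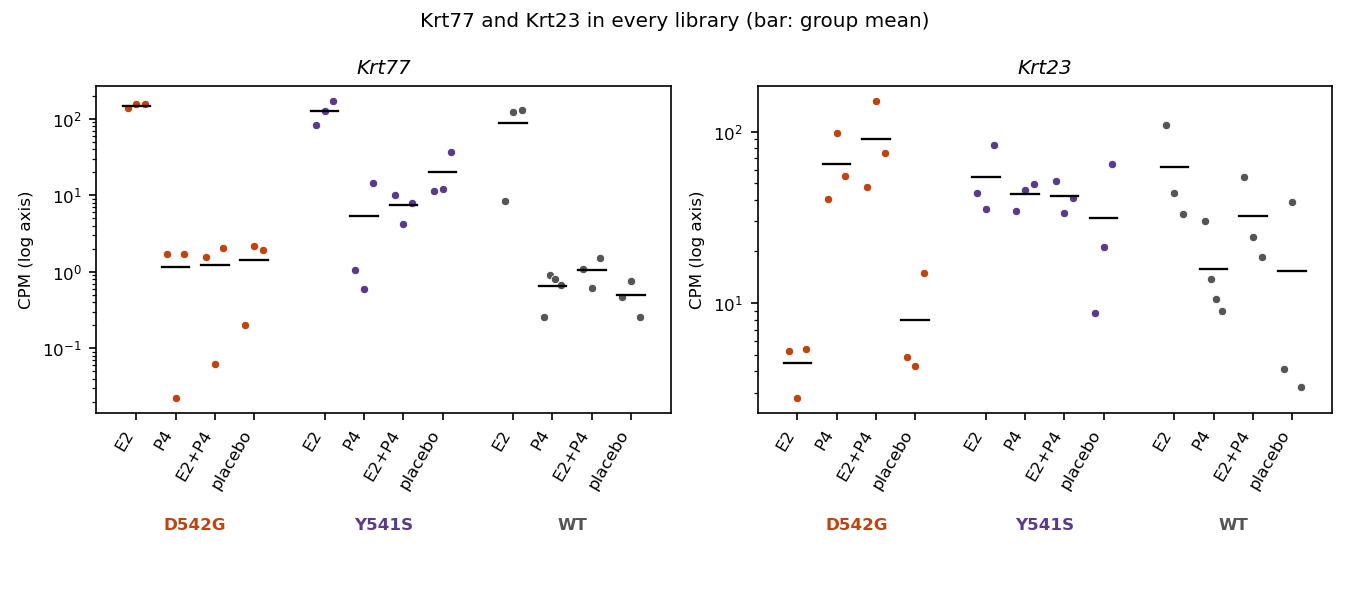
Level of Krt77 (left) and Krt23 (right) in every library on log axes (CPM), by genotype and pellet, with points for libraries and bars for group means. Krt77 is at 82.9 CPM or more in 8 of the 9 E2 libraries. It is at 36.3 CPM or less in every library without E2 alone. Krt23 has its lowest group mean in D542G E2, at 2.80 to 5.41 CPM, a range that overlaps with D542G placebo and WT placebo libraries.

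Adding P4 to E2 went with a low Krt77 level. In WT E2+P4 libraries Krt77 had 1.08, 0.608 and 1.52 CPM, against 8.38, 123 and 130 CPM in WT E2 libraries (-6.33, SE 1.22, adjusted p = 4.45e-04). It was the 1 keratin of 9 called in this comparison, where 18.5% of all genes were called, and the call held in all 10 alternatives. In the mutants the pair was not tested, and the levels stood side by side at 0.0622 to 2.06 CPM in D542G E2+P4 and 136 to 155 CPM in D542G E2 libraries, and at 4.26 to 9.93 CPM in Y541S E2+P4 and 82.9 to 171 CPM in Y541S E2 libraries. Within each genotype the E2+P4 and E2 libraries did not overlap. With P4 alone Krt77 was not called in any genotype. In Y541S P4, library 3 had 14.6 CPM and the others 1.05 and 0.603 CPM. Without library 3 the log2 fold change against placebo was -4.59 (adjusted p = 0.0190), and without the libraries with inner root sheath keratins, of which it is 1, -4.85 (adjusted p = 0.0319), against -1.89 (adjusted p = 0.245) with all libraries.

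Because Krt77 is a skin keratin, markers of suprabasal epidermis were examined beside it. Their 10 genes, such as Krt1, Krt10 and Ivl, summed to 328 to 732 CPM in D542G E2 and 17.4 to 71.4 CPM in D542G placebo libraries, to 105 to 122 CPM in Y541S E2 and 157 to 259 CPM in Y541S placebo libraries, and to 17.3 to 119 CPM in WT E2 and 7.57 to 67.0 CPM in WT placebo libraries. Of the 8 tested, Ivl (involucrin) rose in D542G E2 (4.51, adjusted p = 0.0184) and in WT E2 (3.54, adjusted p = 0.0342), where Calml3 fell (-5.02, adjusted p = 0.0217). The medians of the 8 were -0.31 in D542G E2 and -0.57 in WT E2, against 0.009 and 0.031 over all genes. Without the 7 libraries with inner root sheath keratins 9 were tested, and the medians were 0.24 in D542G E2 and 0.81 in WT E2. The fall of Calml3 in WT E2 was then not called. Ivl was also higher in Y541S than in WT placebo (4.89, adjusted p = 0.0145) and lower in WT E2+P4 than in WT E2 (-5.58, adjusted p = 0.00617). The part of epidermal cells in the Krt77 levels was not tested. The genes most alike to Krt77 over the 37 libraries, by Pearson correlation of log2 CPM, were Cxcl5 (r = 0.90), Lrrc8d (0.88) and Eno1 (0.87), out of 10330 genes whose log2 CPM averaged 2 or more. Over the 12 group means the values were 0.94, 0.96 and 0.96. Libraries of a group share their treatment, so these are descriptions.

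Krt23, a type I keratin, was higher in D542G cells given P4, alone or with E2. D542G P4 libraries had 40.2, 98.2 and 54.9 CPM, against 4.86, 4.27 and 14.9 CPM in D542G placebo libraries (3.01, SE 0.80, adjusted p = 0.00931). D542G E2+P4 libraries had 47.2, 151 and 74.8 CPM against the same placebo libraries (3.51, SE 0.82, adjusted p = 0.00199). Neither hormone group overlapped with placebo. The P4 call was lost without P4 library 2 (2.57, adjusted p = 0.0505) or placebo library 2 (2.70, adjusted p = 0.0593), and the E2+P4 call held in all 11 alternatives. With E2 alone D542G libraries had 5.26, 2.80 and 5.41 CPM, which was not called against placebo (-0.83). In WT, Krt23 had 109, 43.8 and 33.2 CPM with E2 and 4.10, 38.8 and 3.26 CPM with placebo (2.01, SE 0.77, adjusted p = 0.0456), groups that overlapped through placebo library 2. That call was lost in 6 of 12 alternatives, with log2 fold changes of 1.32 to 2.21 and adjusted p of 0.0511 to 0.230. Without placebo library 2 the log2 fold change was 4.08 (adjusted p = 4.86e-04), and it was also 4.08 without the libraries with inner root sheath keratins (adjusted p = 6.28e-04). The E2 responses of D542G and WT for Krt23 differed by -2.84, which was not called (adjusted p = 0.0999) and was called without WT placebo library 2 (-4.91, adjusted p = 0.00266) and without the libraries with inner root sheath keratins (-4.0, adjusted p = 0.0458). In Y541S cells Krt23 stood at 35.2 to 83.1 CPM with E2, 34.4 to 49.3 CPM with P4, 33.4 to 51.3 CPM with E2+P4 and 8.79 to 64.4 CPM with placebo, and no comparison with placebo called it. Its E2 response in Y541S against WT was -1.23 (adjusted p = 0.539) with all libraries and -3.50 (adjusted p = 0.0319) without those with inner root sheath keratins. Its closest genes were Sh3kbp1 (r = 0.91), Mfhas1 (0.91) and Smpdl3b (0.91), with 0.98, 0.96 and 0.95 over group means.

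Levels of the basal keratins Krt5, Krt14 and Krt17 were widely spread within groups, as the scatter of basal against inner root sheath keratins shows. The SEs of their log2 fold changes were 1.06 to 2.54. These 3 genes gave 1 call in the 20 comparisons, where 1.43% to 31.5% of all genes were called by comparison. That call was Krt5 in WT E2, with 2.06, 1.78 and 1.17 CPM against 2.40, 281 and 4.24 CPM in WT placebo libraries (-5.84, SE 2.04, adjusted p = 0.0294). It rests on placebo library 2: without it the log2 fold change was -0.99 (adjusted p = 0.716), and without the 7 libraries -0.99 (adjusted p = 0.515). DESeq2 also called Krt5 lower in D542G with E2 (-4.08), P4 (-4.10) and E2+P4 (-4.31), with adjusted p of 0.0369, 0.0329 and 0.0188, where edgeR did not. Krt5 had 53.3, 3.36 and 116 CPM in D542G placebo libraries, and libraries 1 and 3 of these are among the 7. Without the 7 edgeR gave 0.06, -0.03 and -0.20 for E2, P4 and E2+P4, against -4.03, -4.13 and -4.29 with all libraries, none of them called. Of the 7 libraries with inner root sheath keratins, 6 had a summed Krt5, Krt14 and Krt17 level of 97.0 CPM or more, and WT P4 5 had 19.7 CPM. The medians of the 7 libraries were 116 CPM for Krt5, 68.0 CPM for Krt14 and 121 CPM for Krt17, against 3.28, 19.0 and 31.3 CPM over the other 30 libraries. Hair shaft keratins, such as Krt31, Krt35 and Krt85, summed to 9.73 to 1130 CPM in the 7 and 1.33 to 18.7 CPM in the 30. The 13 basal markers other than keratins, such as Acta2, Myh11 and Trp63, summed to 94.8 to 314 CPM in the 7 and 43.5 to 535 CPM in the 30 libraries, with Lgals7 at 0 in all. High basal keratins also occurred without hair keratins: Y541S E2 1 had 538 CPM of the 3 genes and Y541S placebo 5 had 358 CPM, with 0.378 and 0.144 CPM of inner root sheath keratins.

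**Figure D4:**
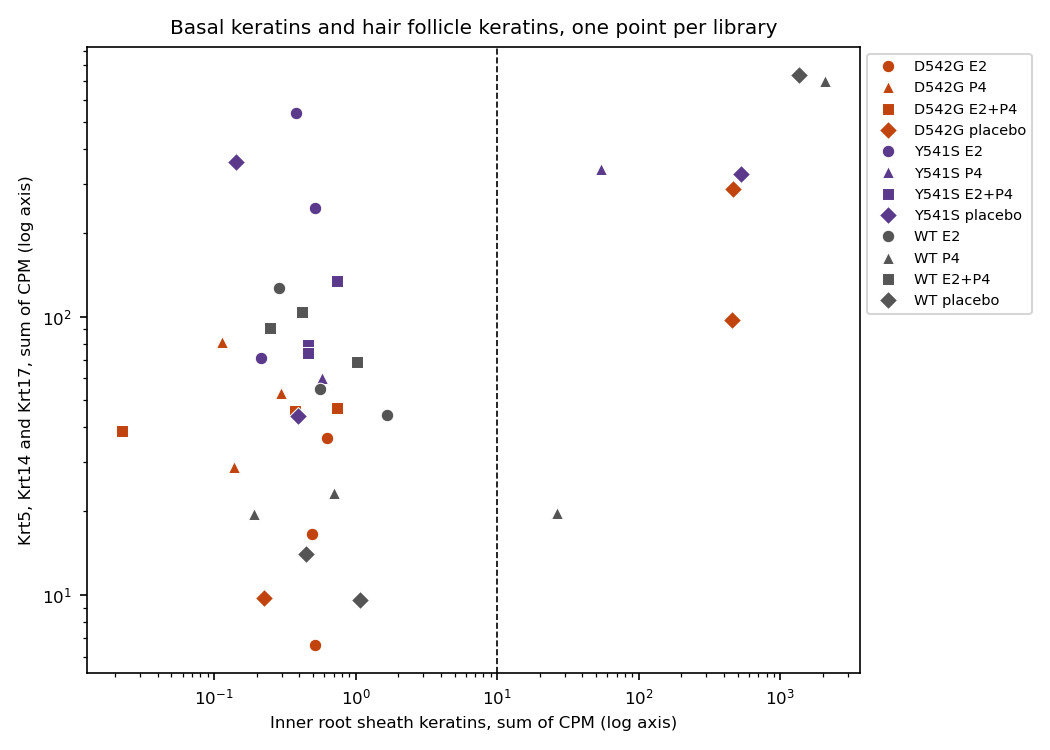
Sum of Krt5, Krt14 and Krt17 (y axis, CPM, log) against the sum of inner root sheath keratins (x axis, CPM, log), 1 point per library, with colour for genotype, marker shape for pellet and a dashed line at 10 CPM. The 7 libraries to the right reach up to 734 CPM of basal keratins, and the 30 to the left run from 6.63 to 538 CPM.

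Leaving out the 7 libraries turned the direction of Krt14 and Krt17 in several comparisons. Krt17 in WT E2 had 61.9, 32.0 and 36.3 CPM against 2.77, 318 and 4.57 CPM with placebo, a log2 fold change of -1.32 that was not called (adjusted p = 0.484). Without the 7 libraries, which takes out the placebo library at 318 CPM, it was 3.57 (adjusted p = 0.00212). Krt14 likewise went to 2.65 (adjusted p = 0.0448) without them, against -0.68 (adjusted p = 0.692) with them. In WT E2+P4 the values without them were 3.62 for Krt17 (adjusted p = 0.00272), 2.86 for Krt14 (adjusted p = 0.0423) and 3.13 for Krt23 (adjusted p = 0.00565), against -1.26, -0.46 and 1.07 with all libraries, none of them called. Between Y541S and WT placebo they were 4.61 for Krt17 (adjusted p = 0.00126), 4.43 for Krt14 (adjusted p = 0.00956) and 3.31 for Krt23 (adjusted p = 0.00924), against -0.25, 1.07 and 1.03. In D542G E2+P4 Krt17 was 3.51 (adjusted p = 0.0422) without them and -0.91 (adjusted p = 0.667) with them, and between Y541S and D542G placebo it was 5.22 (adjusted p = 0.0218) without them and 0.82 (adjusted p = 0.753) with them. The Y541S responses against WT were -4.41 for Krt17 with E2 (adjusted p = 0.0110), -4.32 for Krt17 with E2+P4 (adjusted p = 0.0142) and -4.42 for Krt14 with E2+P4 (adjusted p = 0.0449), against 0.45, 0.54 and -1.07 with all libraries, none of them called. The WT placebo libraries left in, 1 and 3, had 2.77 and 4.57 CPM of Krt17 and 4.41 and 5.25 CPM of Krt14. The Y541S placebo libraries left in, 2 and 5, were far apart, also in the Y541S responses. They had 13.2 and 166 CPM of Krt17, 22.0 and 187 CPM of Krt14, and 8.79 and 64.4 CPM of Krt23. Both D542G values without the 7 rest on 1 D542G placebo library, library 2, with 2.41 CPM of Krt17.

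Across the 37 libraries the 9 genes varied in blocks. Krt14 and Krt17 had r = 0.85, Krt7 and Krt19 had 0.85, Krt8 and Krt18 had 0.74 and Krt8 and Krt19 had 0.73. Krt5 followed Krt14 less closely (0.66). Krt23 ran against Krt7 (-0.75) and Krt18 (-0.72), and with Krt17 (0.67) and Krt14 (0.57). Krt77 was closest to Krt8 (0.69) and Krt19 (0.65). The genes most alike to Krt7 were Arhgap40 (0.92), Ehbp1l1 (0.91) and Acsl5 (0.88), and Ehbp1l1 (0.87) also stood beside Akr1b8 (0.88) and Rab11a (0.87) for Krt19. The closest to Krt5 were Ccnd2 (0.80), Col18a1 (0.73) and Slc39a10 (0.72), those to Krt14 after Krt17 were Bok (0.82) and Rasgef1b (0.77), and those to Krt17 were Fabp5 (0.86), Krt14 (0.85) and Fzd1 (0.83). After their pseudogene-bearing loci, Krt8 was closest to Dnttip1 (0.78) and Abhd5 (0.76), and Krt18 to Riok3 (0.81) and Prkar1a (0.78).

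Other keratins set the 9 in context. Of 45 listed, 44 were in the tables and 36 were tested. Against placebo 2 rose and 2 fell in D542G E2, where 15.7% of all genes were called, and 13 fell in D542G E2+P4 (25.4% of all genes called). In WT E2 4 rose and 14 fell (31.5%). The list includes the hair follicle keratins carried by placebo libraries of all 3 genotypes, and in D542G by 2 of the 3. Krt71 and Krt35, for example, had log2 fold changes of -9.92 (adjusted p = 0.0325) and -9.93 (adjusted p = 0.0434) in D542G E2+P4, and of 0.75 and 1.60 without the 7 libraries, where neither was called. Without the 7, 33 of the list were tested. In WT E2 4 rose and 2 fell, where 24.3% of all genes were called in that fit. Fewer were called in D542G E2 and D542G E2+P4, as over all genes, with medians of 0.73 and 0.08. Between Y541S and WT placebo 8 rose and none fell (13.4%), with the same counts without the 7 (9.64%). Krt15, a type I keratin of basal and stem cells of stratified epithelia, was the most abundant of them. It averaged 2380 ± 1056 CPM in Y541S placebo and 46.1 ± 71.5 CPM in WT placebo libraries (5.69, SE 1.12, adjusted p = 7.80e-04). Krt6a, a stress-inducible type II keratin, averaged 756 ± 237 CPM in Y541S placebo and 86.2 ± 5.86 CPM in WT placebo libraries (3.13, SE 0.49, adjusted p = 4.55e-05). Krt4, a type II keratin of mucosal epithelia, averaged 412 ± 120 CPM in D542G E2 and 25.3 ± 8.19 CPM in D542G placebo libraries (4.03, SE 0.62, adjusted p = 4.11e-05). Krt79, a type II keratin of skin, averaged 42.8 ± 19.9 CPM in D542G E2 and 7.47 ± 4.52 CPM in D542G placebo libraries (2.52, SE 0.84, adjusted p = 0.0386). Without the 7 libraries Krt4 was at 3.60 (adjusted p = 0.0555) and Krt79 at 2.98 (adjusted p = 0.148) in D542G E2. Krt4 also fell with E2+P4 in D542G (-2.53, adjusted p = 0.00222) and Y541S (-3.71, adjusted p = 1.14e-04).

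Of 19 listed genes that anchor keratin filaments at desmosomes and hemidesmosomes, 18 were tested. In D542G E2+P4 against placebo 1 rose and 9 fell, where 25.4% of all genes were called, with a median of -1.01 against 0.062 over all genes, led by the desmosomal cadherin Dsc2 (-2.25, adjusted p = 1.04e-06), desmoplakin Dsp (-1.64, adjusted p = 8.61e-05) and dystonin Dst (-1.65, adjusted p = 1.18e-04). Without the 7 libraries 6 fell and none rose there, and the median was near 0. In D542G E2 2 rose and 3 fell (15.7% of all genes called), with the plakin Ppl at -1.80 (adjusted p = 8.14e-05). In Y541S E2+P4 1 rose and 6 fell (18.5%), and in WT E2 2 rose and 4 fell (31.5%). Of 13 other intermediate filament genes 11 were tested. In D542G E2+P4 5 rose and none fell, among them the synemin gene Synm (2.87, adjusted p = 8.71e-04), the nestin gene Nes (4.53, adjusted p = 0.00206) and vimentin, Vim (2.29, adjusted p = 0.00543). In D542G P4 2 rose, Vim (2.85, adjusted p = 0.00184) and Synm (2.26, adjusted p = 0.00900), where 18.4% of all genes were called. In WT E2 3 rose and 1 fell, with Vim at 2.33 (adjusted p = 0.00373) and the nuclear lamin gene Lmna at 1.29 (adjusted p = 5.82e-04). In D542G E2 1 was called, the lamin gene Lmnb2, which fell (-0.65, adjusted p = 0.0442). Without the 7 libraries that fall was not called, and fewer of the 11 rose in D542G E2+P4 and in D542G P4.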

How the data were processed

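RNA of sorted mature luminal cells was sequenced in 37 libraries. The authors deposited raw read counts per gene for each library, with RPKM values beside them. The deposited RPKM values were not used. Libraries were made with Nextera XT per the labels' protocols, and reads were placed on GRCm38 per the submitters' processing notes. The aligner, the counting tool and its strand setting are not given in the sources used here.

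Groups came from the genotype and pellet labels. The deposited counts were tested with edgeR 4.0.16 (R 4.3.3), using the quasi-likelihood test in 1 fit of 12 groups and 37 libraries, with TMM scaling (factors 0.767 to 1.17), the filterByExpr filter and Benjamini-Hochberg adjustment over 18426 genes. The fit had 25 residual degrees of freedom, and the common biological coefficient of variation was 0.458. Correlations used log2 CPM with a prior count of 2. The scripts were tested on simulated data with known changes. Outliers in a group of 4 were found with Dixon's test.

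The members and gene lists were chosen with earlier results of these data known. All 9 members are named. From each list the text takes at most 3 called genes with the smallest adjusted p. From the other keratins it takes up to 6 by highest mean CPM over all libraries, and for each member the 3 most correlated genes. The cutoff for inner root sheath keratins was 10 CPM in sum and was set after seeing the data, as was the hair keratin grouping.

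Alternatives were RLE scaling, DESeq2 1.42.0, no filter on low counts, sample number as a block, the first series of sample identifiers only, removal of 3 libraries that stood apart (WT placebo 2, WT P4 2 and Y541S placebo 5), removal of each library in turn and, added after seeing the data, removal of the 7 libraries with inner root sheath keratins.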

Additional observations from a re-analysis of the deposited data

Results flagged for a closer look

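In WT P4, the 1 group of 4 libraries, library 2 stood apart for all 3 basal keratins. It had 200 CPM of Krt5, 127 CPM of Krt14 and 372 CPM of Krt17, where the other 3 libraries reached at most 4.99, 9.17 and 12.8 CPM. Each gap exceeded Dixon's critical value for 4 samples. Chance flags about 1 in 20 such groups, and 9 were tested. The same library had 2064 CPM of inner root sheath keratins and 1130 CPM of hair shaft keratins, and the part of these in the basal keratin levels was not tested.

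Hormone responses that differed between a mutant and WT by the test of the difference itself were 8 in number, on the log2 scale. With E2 they were 0.92 for Krt7 in D542G, -1.03 for Krt8 in Y541S and -4.77 for Krt77 in Y541S. With P4 there was 1, -0.98 for Krt19 in D542G. With E2+P4 they were -0.98 for Krt7, -1.08 for Krt8 and -1.10 for Krt18 in D542G, and -0.92 for Krt8 in Y541S. The Krt77 value stands beside a Y541S placebo level of 11.4 to 36.3 CPM, against 0.253 to 0.766 CPM in WT placebo libraries. By comparison, 3.35% to 9.23% of all genes were called for a difference in response. Each of the 8 keratin calls was lost in 3 to 14 of the alternatives run.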

How the results depend on the processing

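Of the 32 member calls, 9 held in every alternative and none changed sign: Krt8 and Krt77 in WT E2, Krt77 in D542G E2, Krt7, Krt18, Krt19 and Krt23 in D542G E2+P4, Krt77 in WT E2+P4 against E2, and Krt77 between Y541S and WT placebo. RLE scaling and DESeq2 kept all 32 and added 1 and 10. No filter kept 26 and the block 26. The first identifier series kept 4 of 11, the fit without the 3 libraries that stood apart 10 of 21, and the fit without the 7 libraries with inner root sheath keratins 13 of 31, in which D542G placebo has 1 library, assumed to vary like the others. The median of all genes moved by at most 0.0779.

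The larger moves in the counts of called keratins were as follows, and the list is not complete. Counts left out can also have moved, as did that of Y541S against WT placebo without the 7. In WT E2 (5) the count was 3 with no filter and 2 to 4 when single libraries were left out. In WT E2+P4 (1) it was 3 without the 3 or the 7 libraries and 0 to 2 by single libraries. In D542G E2 (4) it was 1 without the 7. In D542G P4 (2) it was 4 by DESeq2, 1 without the 7 and 0 to 3 by single libraries. In Y541S P4 (0) it was 1 without the 7 and 0 to 1 by single libraries, and in Y541S E2+P4 (2) it was 0 without the 7. Against WT E2, WT E2+P4 (1) gave 1 to 2 by single libraries. Against WT P4 (1) it gave 0 in the first series, 3 without the 3 and 0 to 1 by single libraries. Between Y541S and D542G placebo (1) the count was 2 by DESeq2, 0 with the replicate block, in the first series and without the 3, and 0 to 2 by single libraries. For the D542G responses, E2 (1) gave 3 by DESeq2, 2 with the replicate block, 4 without the 3 and 0 to 4 by single libraries. P4 (1) gave 2 by DESeq2, 0 in the first series, without the 3 and without the 7, and 0 to 1 by single libraries. E2+P4 (3) gave 1 without the 3, 0 without the 7 and 0 to 4 by single libraries. For the Y541S responses, E2 (2) gave 1 with no filter, 0 with the block, in the first series and without the 3, and 0 to 2 by single libraries. E2+P4 (1) gave 0 with no filter, with the block, in the first series and without the 3, 2 without the 7 and 0 to 2 by single libraries. The cause was not tested.

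Sample numbers are shared between groups, but 17 of 178 same-number pairs correlated above 0.1 (median r 0.001), so the numbers were not taken as pairs.

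Over the whole table, counts moved by more than 1.5 times as follows. Without the 7 libraries they were 18 against 263 in WT P4, 955 against 2893 in D542G E2, 732 against 3385 in D542G P4, 2003 against 4685 in D542G E2+P4, 130 against 857 in Y541S E2, 600 against 2077 in Y541S P4, 1970 against 3417 in Y541S E2+P4, 2549 against 4274 in WT E2+P4 over P4, 18 against 372 in D542G over WT placebo and 603 against 2184 in Y541S over D542G placebo. The response differences gave 513 against 1701, 0 against 617 and 86 against 792 for D542G with E2, P4 and E2+P4, and 204 against 1350 and 960 against 1599 for Y541S with P4 and E2+P4. DESeq2 gave 746 in WT P4, 1439 in Y541S E2, 665 in D542G over WT placebo, and 1264, 1435 and 2098 for the D542G P4, D542G E2+P4 and Y541S P4 responses. In WT P4, no filter gave 160, the block 79 and removal of the 3 libraries 523. The first series and removal of the 3 gave 1743 and 1878 in Y541S E2. Between Y541S and D542G placebo the block gave 1126, the first series 765 and removal of the 3 867. In the Y541S P4 response they gave 349, 510 and 629, and the first series gave 2792 for WT E2+P4 over P4 and 941 for the Y541S E2 response.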
